A study of Ovis aries with 8 samples.

Results

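The RNAs described here are the 12S and the 16S ribosomal RNA (rRNA) of the mitochondrion, read from a table of raw counts per gene of fetal sheep cortical plate. They are 2 of the 27054 Ensembl identifiers of the table, ENSOARG00000000002 (12S) and ENSOARG00000000004 (16S). The table gives no gene names. Both were taken by identifier, on the premise that the first 37 sheep identifiers run in the order of the genes along the mitochondrial genome, and their naming rests on that premise. The 8 libraries came from 4 untreated Border Leicester/Merino fetuses of 2 ewes at a gestational age of 90 days. In each fetus the cortical plate was sampled once under a gyrus, a ridge of the folding cortex, and once under a sulcus, a furrow, so the 4 gyral and 4 sulcal libraries form 4 pairs. The cortical plate is the layer in which newly made neurons settle. Markers of the tissue could not be checked, because the identifiers are not paired with names.

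Mitochondria carry a small circular genome of their own, inherited through the mother, that holds the genes for their ribosomal RNAs, for a set of transfer RNAs (tRNAs) and for a few proteins of the respiratory chain and ATP synthase. The 12S rRNA is the core of the small subunit of the mitochondrial ribosome and the 16S rRNA, the longer of the pair, that of the large subunit. Both genes lie side by side near the start of 1 long transcript, separated and flanked by tRNA genes whose excision frees the rRNAs. The mitochondrial ribosome makes only the proteins encoded in the mitochondrial genome.

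The counts followed the layout that the premise requires. In RefSeq's annotation of the sheep assembly ARS-UI_Ramb_v3.0 the 37 mitochondrial genes open with tRNA, rRNA, tRNA, rRNA and tRNA, and the identifiers at positions 1, 3 and 5 had 0 counts in all 8 libraries. Between these neighbours, 12S had 315 to 842 counts per library (median 606) and 16S had 119 to 329 (median 158). A count of 0 allows up to 3 counts in a library, so both rRNA positions stood far above their neighbours. Over all 37 positions, counts were present in at least 1 library at both rRNA positions, at 12 of the 13 protein-coding positions and at 2 of the 22 tRNA positions. Those 2 were position 34, with 52 to 335 counts, and position 37, with 139 to 792, so the size of its count alone does not set 16S apart from every tRNA position. At the protein-coding positions of ND2, ND3 and ND4L no library had more than 2 counts, which is within what a count of 0 allows. Presence of counts therefore does not set these positions apart from the tRNA positions at 0.

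**Figure D1:**
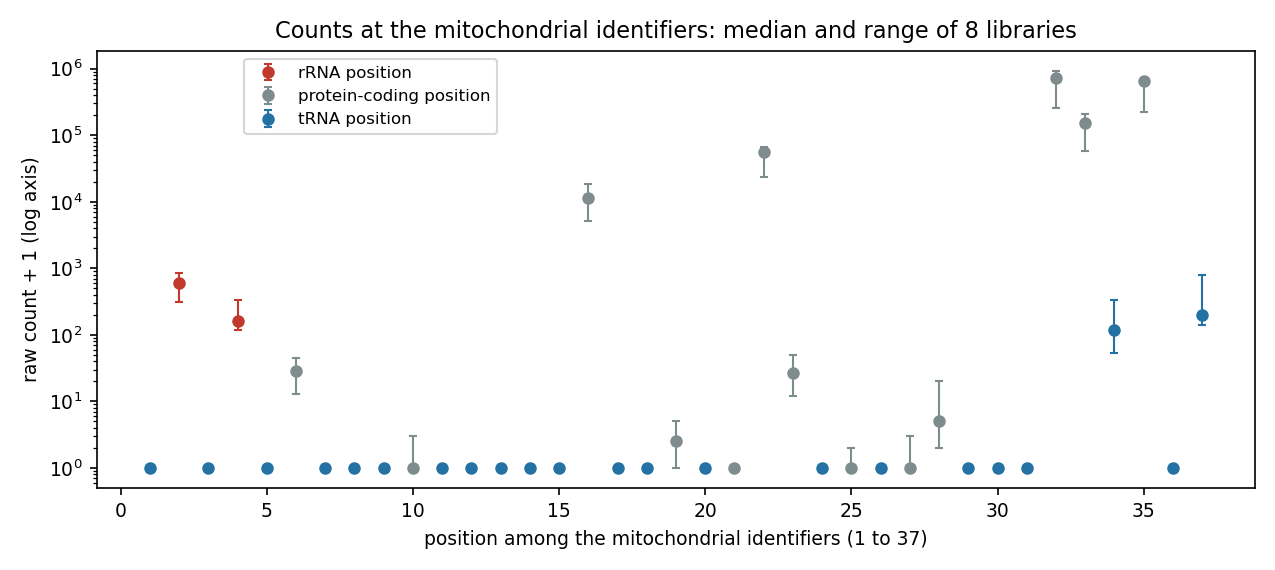
Raw count plus 1 (log axis) at each of the 37 mitochondrial identifiers in order; points are medians and bars the lowest and highest of 8 libraries, coloured by the kind of gene RefSeq places there. The rRNA positions 2 and 4 (medians 606 and 158) lie between tRNA positions at 0 and far below the 5 abundant protein-coding positions.

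The rRNA counts were small beside those of the abundant protein-coding positions. The position of ND5, a subunit of respiratory complex I, had 257485 to 935787 counts, and that of CYTB, cytochrome b of complex III, had 221649 to 735965. Together the 2 rRNAs made up 0.0382% to 0.0821% of all counts at the 37 positions. The protein-coding positions were themselves very uneven: that of ND1, which follows directly after the 16S gene and its tRNA, had 12 to 44 counts, and that of COX2 had 0 to 4. How reads that also fit nuclear copies of mitochondrial sequence were counted is not given in the sources used here, and its part in these levels was not tested. The counts are not scaled for gene length, so levels are compared below between libraries and not between genes. Within a library, 12S had a higher count than 76.3% to 88.0% of the 27054 identifiers, and 16S a higher count than 68.1% to 80.2%.

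Gyrus and sulcus were compared within each fetus, the contrast for which the samples were taken. Values are in CPM, counts per 1000000 counts of the library over all rows. In bulk RNA, fewer cells of a type and less RNA per cell cannot be told apart. For 12S, the small-subunit rRNA, the gyrus and sulcus of ewe 1 fetus 1 had 29.4 and 34.0 CPM. Those of ewe 1 fetus 2 had 24.4 and 32.8 CPM. In ewe 2 fetus 1 the levels were 47.4 in the gyrus and 31.98 CPM in the sulcus, and in ewe 2 fetus 2 they were 14.3 and 19.2 CPM. The gyrus was thus lower in 3 of 4 fetuses and higher in ewe 2 fetus 1, whose gyrus held the highest level of all 8 libraries, and the regions overlapped over most of their range. Gyri averaged 28.9 ± 13.9 CPM and sulci 29.5 ± 6.90 CPM (SD, n = 4 each).

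The 16S rRNA of the large subunit went the same way in each fetus. Its levels in gyrus and sulcus were 5.59 and 9.69 CPM in ewe 1 fetus 1, and 5.35 and 6.51 CPM in ewe 1 fetus 2. They were 18.5 and 11.9 CPM in ewe 2 fetus 1, and 6.76 and 8.65 CPM in ewe 2 fetus 2. Again the gyrus was lower in 3 fetuses and the gyrus of ewe 2 fetus 1 had the highest level, with the other 3 gyri between 5.35 and 6.76 CPM. Gyri averaged 9.05 ± 6.34 CPM and sulci 9.19 ± 2.24 CPM (SD, n = 4 each).

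**Figure D2:**
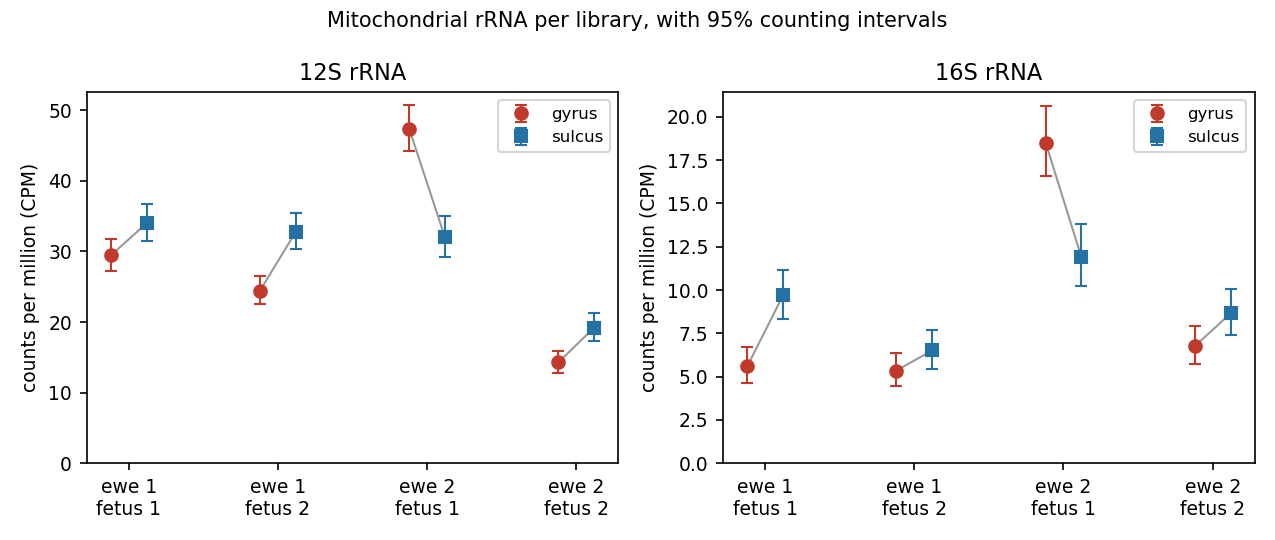
Level of 12S (left) and 16S rRNA (right) in CPM, by fetus; circles are gyrus, squares sulcus, lines join the libraries of a fetus and bars are 95% Poisson intervals, which cover counting error only. The gyrus is below the sulcus in 3 of 4 fetuses for both RNAs and above it in ewe 2 fetus 1.

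Neither difference between the regions passed the test. In edgeR's quasi-likelihood test with the fetus as a block, the gyrus minus sulcus log2 fold change of 12S was -0.13 ± 0.20 (SE; 95% interval -0.57 to 0.30; Benjamini-Hochberg adjusted p = 0.99). That of 16S was -0.21 ± 0.27 (SE; 95% interval -0.80 to 0.38; edgeR, adjusted p = 0.99). With all fetuses both intervals leave out a doubling or halving of the level, which is a difference of 1 on the log2 scale. For 16S the exclusion of a halving depended on the fetuses included. Its 95% interval was -1.10 to 0.12 without ewe 2 fetus 1 and -1.45 to 0.32 in ewe 1 only (edgeR). A halving of 16S is therefore not safely excluded. In every other alternative that gave an interval, 16S left out both changes, and 12S did so in all of them. Over the whole table edgeR called 0 of 13221 tested genes (0%), with 512 at an unadjusted p below 0.05, and DESeq2 and limma-voom with the same block also called 0. The median log2 fold change over all tested genes was 0.0048, and the median of its size was 0.16. Without ewe 2 fetus 1 the log2 fold changes were -0.37 for 12S and -0.49 for 16S, both larger than with it (edgeR, adjusted p = 0.999 each). In the fetuses of ewe 2 alone, whose 2 fetuses differed in sign, they were 0.096 and 0.17.

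In single fetuses the differences between the regions ran from 1.58 to 6.84 times their counting standard error. For 12S the gyrus to sulcus ratio was 0.866, 0.746, 1.48 and 0.743 in the order of fetuses given above, and these differences were 2.58, 5.18, 6.84 and 3.87 times their counting standard error. For 16S the ratios were 0.577, 0.822, 1.56 and 0.781, or 4.69, 1.58, 4.73 and 2.19 times. Reads from amplified cDNA are not independent molecules, so the counting error is a lower limit of the technical error. The change from region to region was also compared between the ewes. The difference, ewe 2 minus ewe 1, was 0.44 ± 0.38 for 12S (SE; edgeR interaction test, adjusted p = 0.857) and 0.73 ± 0.51 for 16S (adjusted p = 0.827) on the log2 scale. Without ewe 2 fetus 1 these differences were -0.06 and 0.24, and without ewe 2 fetus 2 they were 0.90 and 1.20 (edgeR, adjusted p of 0.451 to 1). That test called 1 of 13221 genes (0.00756%).

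Summed over both RNAs, the level ran from 21.04 to 65.9 CPM in gyri and from 27.9 to 43.9 CPM in sulci. The mean gyrus minus sulcus difference of the log2 sum was -0.13 ± 0.24 (SE, n = 4 fetuses; exact permutation of the sign within fetuses, two-sided p = 0.625). With 4 pairs this test cannot go below 0.13, so it could not pass 0.05.

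Most of the variation of both rRNAs lay between fetuses. For log2 CPM of 12S, 82.0% of the sum of squares belonged to fetus (3 degrees of freedom) and 1.502% to region (1 degree of freedom), and for 16S 76.1% and 3.04%. The fitted levels of 12S spanned 1.48 on the log2 scale between the highest and the lowest fetus, and differed between fetuses (edgeR quasi-likelihood F test, adjusted p = 0.0328). For 16S the span was 1.40, and the difference did not pass the test (edgeR, adjusted p = 0.0813). This test sets the spread of fetuses against that of the gyrus to sulcus differences, not against repeat samples of a region. The fetus cannot be told apart from any handling that both its libraries shared. The background of this comparison was high: 1172 of 13221 genes were called (8.86%), with a median span of 0.77 over all tested genes. The call of 12S rested on ewe 2 fetus 2. Without that fetus the span of 12S fell to 0.49 (edgeR, adjusted p = 0.551), and with scaling by column totals in place of TMM it was 1.27 (edgeR, adjusted p = 0.0568). For 16S the highest fetus was ewe 2 fetus 1, without which the span was 0.39 (edgeR, adjusted p = 0.744).

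The library pair of ewe 2 fetus 2 stood apart in its mitochondrial RNA. The protein-coding positions together took 2.56% of all counts in its gyrus and 3.39% in its sulcus, against 7.53% to 9.17% in the other 6 libraries. Both libraries of this fetus were below all others in 12S CPM. How many of all tested genes shared this order was not counted. The 12S level of this fetus, a mean of 16.8 CPM, was 0.502 times the mean of the other 6 libraries. The 5 abundant protein-coding positions (COX1, ATP6, ND5, ND6 and CYTB) were lower still, at 0.342 to 0.400 times the others. All 5 were called in the test between fetuses (edgeR, adjusted p of 2.45e-04 to 0.0378), where 8.86% of all tested genes were. The positions of ND1 and COX3 and tRNA positions 34 and 37, also tested, were not called (edgeR, adjusted p of 0.0672 to 0.295). The 16S level of this fetus, at 7.70 CPM, was 0.803 times the mean of the other 6 libraries and lay within their range of 5.35 to 18.5 CPM. In this fetus 12S was thus low together with the protein-coding positions, and its 16S values overlapped those of ewe 1. Compared with ewe 2 fetus 1 alone, both rRNAs were lower in this fetus. The mean log2 CPM was 5.28 in ewe 2 fetus 1 and 4.05 in this fetus for 12S, and 3.89 and 2.93 for 16S. The difference between the rRNAs is described by their ratio below. TMM scaling lowers the 2 libraries of this fetus further, by 0.15 and 0.17 on the log2 scale for the median gene, and shifts the other libraries by -0.03 to 0.12.

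The 16S to 12S count ratio needs no library total and compares both RNAs within a library. It was 0.190 in the gyrus and 0.285 in the sulcus of ewe 1 fetus 1, and 0.219 and 0.198 in those of ewe 1 fetus 2. In ewe 2 it was 0.391 and 0.372 for fetus 1, and 0.473 and 0.450 for fetus 2. Gyrus and sulcus of a fetus thus had similar ratios except in ewe 1 fetus 1, and all 4 libraries of ewe 2 lay above all 4 of ewe 1. As a share of the summed rRNA counts, 16S took 15.95% to 22.2% in ewe 1 and 27.1% to 32.1% in ewe 2. The highest share in ewe 1, that of the sulcus of fetus 1, had a 95% interval of 19.4% to 25.1% (exact Clopper-Pearson), and the lowest in ewe 2, that of the sulcus of fetus 1, one of 23.7% to 30.7%, so these overlapped. The other 3 libraries of ewe 1 had upper bounds of 18.8% to 20.97%, below every lower bound in ewe 2.

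**Figure D3:**
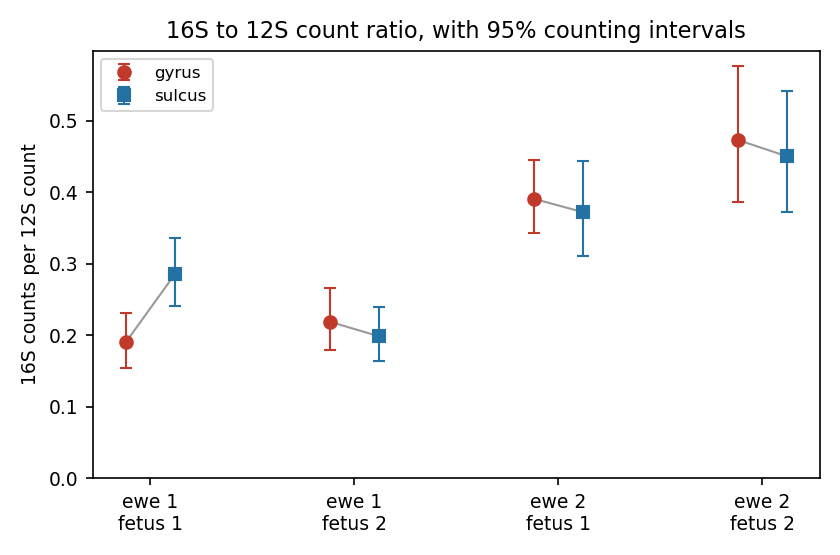
Number of 16S counts per 12S count in each library, by fetus; circles are gyrus, squares sulcus, and bars are 95% exact Clopper-Pearson intervals of the share turned into ratios, for counting error only. Ratios are 0.190 to 0.285 in ewe 1 and 0.372 to 0.473 in ewe 2, with no overlap between the points of the ewes.

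Between the regions the ratio did not differ beyond the spread of the fetuses. The mean gyrus minus sulcus difference of the log2 ratio was -0.08 ± 0.17 (SE, n = 4 fetuses; same exact permutation test, p = 1). The gyrus had the lower ratio in ewe 1 fetus 1 and the higher one in the other 3 fetuses, and without ewe 1 fetus 1 the mean difference was 0.094. Fetus accounted for 90.8% of the sum of squares of the log2 ratio, and the contrast between the ewes, which is part of it, for 85.8%. The mean ratio was 0.223 ± 0.043 in the libraries of ewe 1 and 0.421 ± 0.048 in those of ewe 2 (SD over 4 libraries of 2 fetuses each). On the log2 scale of fetus means the difference was 0.93, which is a ratio 1.91 times as high in ewe 2 (exact two-sided permutation test over 4 fetuses, p = 0.333, the smallest p that 2 fetuses against 2 allow). It was 1.08 in the gyral and 0.78 in the sulcal libraries alone. This comparison of ewes was chosen after the values were seen. With 2 ewes, the ewe cannot be told apart from anything else that the fetuses of an ewe shared. The column names of ewe 2 fetus 1 carry 1 digit more than the sample description, and the ewe of that fetus rests on reading them as that sample.

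Neither RNA alone separated the ewes. On the mean of fetuses, 16S in CPM was 1.62 times as high in ewe 2 as in ewe 1, and 12S was 0.849 times as high. The 12S levels of ewe 1 lay between 24.4 and 34.0 CPM, inside the 14.3 to 47.4 CPM of ewe 2. The 16S levels of the ewes also overlapped, at 5.35 to 9.69 CPM and 6.76 to 18.5 CPM.

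The rRNAs were then set against the protein-coding counts of the same organelle, a sum of 13 positions of which the 5 abundant ones make up nearly all. Per 10000 protein-coding counts, 12S had 3.21 and 3.76 counts in gyrus and sulcus of ewe 1 fetus 1, and 3.25 and 3.85 in those of ewe 1 fetus 2. It had 5.49 and 3.71 in ewe 2 fetus 1, and 5.57 and 5.67 in ewe 2 fetus 2. On this scale 12S was highest in the fetus whose 12S CPM was lowest, and only the sulcus of ewe 2 fetus 1 fell among the libraries of ewe 1. For 16S the values were 0.609 and 1.07 in ewe 1 fetus 1, and 0.710 and 0.764 in ewe 1 fetus 2. In ewe 2 they were 2.15 and 1.38 in fetus 1, and 2.63 and 2.55 in fetus 2. All 4 libraries of ewe 2 were above those of ewe 1, by a factor of 2.74 on the mean of fetuses (exact two-sided permutation test over 4 fetuses, p = 0.333, the smallest possible). For 12S that factor was 1.44 (p = 0.333 in the same exact test). These were 2 of 6 measures compared between the ewes, and none could pass a correction.

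**Figure D4:**
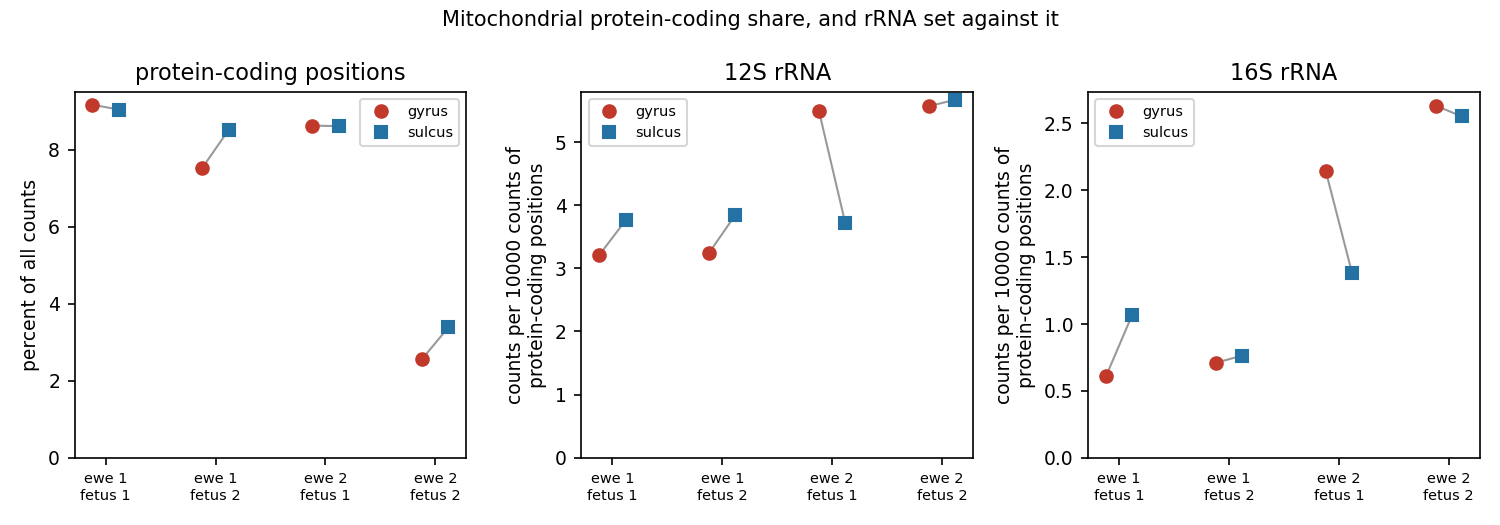
Left, share of all counts at the mitochondrial protein-coding positions in percent; middle and right, 12S and 16S counts per 10000 of those counts; circles are gyrus, squares sulcus, and lines join the libraries of a fetus. The protein-coding share is lowest in ewe 2 fetus 2 (2.56% and 3.39%), where both rRNAs are high relative to it, and 16S is at least 1.38 in all libraries of ewe 2 and at most 1.07 in ewe 1.

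Gyrus and sulcus did not separate on this scale either. Both rRNAs together had 5.90 ± 2.34 counts per 10000 protein-coding counts in gyral libraries and 5.69 ± 1.70 in sulcal ones (SD, n = 4 each). The mean gyrus minus sulcus difference of the log2 ratio was 0.005 ± 0.21 (SE, n = 4 fetuses; same exact permutation test, p = 1). In ewe 2 fetus 2 the gyrus to sulcus ratio was 0.998, where the ratios in CPM were 0.743 for 12S and 0.781 for 16S, so rRNA and protein-coding counts were lower in that gyrus by nearly the same factor. In ewe 2 fetus 1 it was 1.499, with protein-coding shares of 8.63% in the gyrus and 8.62% in the sulcus, so the rRNAs were higher in that gyrus while the protein-coding sum took almost the same share in both regions.

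Of the other mitochondrial identifiers, 7 of 13 protein-coding and 2 of 22 tRNA positions passed the filter on low counts. In the gyrus minus sulcus test 0 of these 9 were called, where 0% of all genes were, and all 9 fitted values were below 0, as were those of both rRNAs, with TMM and under the 3 other scalings. The median log2 fold change was -0.11 at the protein-coding and -0.44 at the tRNA positions. The lowest unadjusted p was that of ND6, another complex I subunit, at 0.0186, with a log2 fold change of -0.28 (edgeR, adjusted p = 0.99). These positions share a genome and the same libraries, so a common sign is not independent from one to the next.

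Across the 8 libraries, the profiles of the 2 rRNAs were only partly alike. Pearson's r of log2 CPM was 0.57 between 12S and 16S, and 16S ranked 450 in likeness to 12S among 8694 identifiers with a mean count of at least 100. The protein-coding positions resembled 12S more, with r of 0.91 for CYTB, 0.90 for COX1 and ATP6, and 0.85 for ND5 and ND6. The 16S rRNA had r of 0.12 to 0.28 with those 5. These values rest in part on ewe 2 fetus 2. Over the other 6 libraries r with 12S was 0.88 for 16S, 0.89 for CYTB, 0.62 for COX1, 0.59 for ATP6, 0.06 for ND6 and -0.03 for ND5. Over the same 6 libraries r with 16S was 0.77 for CYTB, 0.71 for ATP6, 0.24 for COX1, 0.05 for ND6 and -0.21 for ND5. Outside the mitochondrial identifiers, the 2 most like 12S were ENSOARG00000006200 (r = 0.987), with 167 to 357 CPM, and ENSOARG00000008911 (r = 0.980), with 15.2 to 27.5 CPM. Those most like 16S were ENSOARG00000004601 (r = 0.973), with 676 to 1001 CPM, and ENSOARG00000008819 (r = 0.972), with 108 to 215 CPM. They were picked as the highest of all compared, and the points share fetuses, libraries and totals, so these correlations describe 8 libraries and carry no test. The highest level of all 4 was in the gyrus of ewe 2 fetus 1, where both rRNAs also peaked. Their choice by likeness to the rRNAs makes this likely, so it is no separate observation.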

How the data were processed

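The authors deposited raw counts per Ensembl gene identifier, with 1 column for each of the 8 libraries. Per the labels' protocols, RNA was amplified by single primer isothermal amplification. Per the submitters' processing notes, STAR 2.4.2a, featureCounts and edgeR 3.4.2 were used, with no role or order. Build, annotation release, strand setting and the handling of reads with several matches were not stated in these sources. The RefSeq gene table (35057 genes, ARS-UI_Ramb_v3.0) matched 0 identifiers and served only for the order of the 37 mitochondrial genes. No rRNA sequence is shown.

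Total counts per library were 14788987 to 23927215. Genes were tested by the quasi-likelihood F test of edgeR 4.0.16 (R 4.3.3) with TMM scaling, a minimum count of 10 (13221 genes kept), fetus as block and Benjamini-Hochberg adjustment over all genes tested. The threshold was an adjusted p below 0.05. The block follows the design, since both regions came from the same fetus, and deviations from the region means correlated at 0.272 to 0.52 within fetuses. Ratios were tested by exact permutation (Python 3.11.15, scipy 1.17.1). Intervals are Poisson for CPM and Clopper-Pearson for shares, at 95%, for counting error only. Alternatives were the fit without the block, DESeq2 1.42.0, limma-voom (limma 3.58.1), other scalings, no filter, single ewes, and each fetus left out. The scripts were tested on simulated data. Identifiers most like each rRNA were the 2 outside the mitochondrial ones with the highest Pearson r of log2 CPM (pseudocount 0.5, mean count of at least 100). The members, lists and tests were chosen with earlier results of these data known.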

Additional observations from a re-analysis of the deposited data

Results flagged for a closer look

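Of 21 sets of 4 values examined, 7 held a value far from the other 3 by Dixon's criterion, where chance gives 1.05; the sets overlap, so they are not 7 independent cases. Among the 4 sulci, that of ewe 2 fetus 2 gave 4 of them. Of these sulci it had the lowest 12S level (19.2 CPM) and the lowest protein-coding share (3.39% of all counts). It also had the highest counts per 10000 protein-coding counts for 12S (5.67) and for both rRNAs together (8.22). The gyrus of that fetus was lower still in 12S (14.3 CPM) and in protein-coding share (2.56%), but was not flagged among the gyri. In gyri the 16S level of ewe 2 fetus 1, 18.5 CPM, lay far above the other 3. The gyrus minus sulcus difference of the log2 rRNA sum was also apart in that fetus, at 0.59. That of the log2 ratio of 16S to 12S was apart in ewe 1 fetus 1, at -0.59.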

How the results depend on the processing

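The gyrus minus sulcus changes of 12S and 16S stayed uncalled in all 13 alternatives each. Their sign turned only in the fetuses of ewe 2 alone (0.096 and 0.17). Without the replicate block they were -0.036 and -0.025, and with a fetus left out -0.37 to -0.0053 and -0.49 to -0.027. Leaving out the block changed no call of the members, and the test between fetuses was run only with it. The count of called genes between regions was 5 without a low count filter, 1 in ewe 1 only and 0 to 1 with a fetus left out; the cause was not tested. The 12S difference between fetuses lost its call with column totals (1.27), and its span was 0.49 to 1.47 with a fetus left out; 16S gained a call without a filter (span 1.39, edgeR adjusted p = 0.00693), and its span was 0.39 to 1.40 with a fetus left out. Between fetuses 2756 of 20941 tested genes were called without a filter, against 1172 of 13221 with it, and 463 to 1102 with a fetus left out. The interaction of region and ewe called 0 genes without the replicate block against 1 with it, and 8 to 23 with a fetus left out. Its value for 12S was -0.0599 to 0.90 with a fetus left out, below 0 only without ewe 2 fetus 1, and for 16S 0.24 to 1.20. With a fetus left out the gyrus minus sulcus log2 ratio of 16S to 12S was -0.15 to 0.094, and that of rRNA to protein-coding counts -0.19 to 0.12. The ewe difference of the ratio was 0.79 to 1.07 with a fetus left out. At 119 counts, the lowest value of 16S, the 95% counting interval spans 4.63 to 6.69 CPM, which limits what can be seen in single libraries.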
